A study of Mus musculus with 52 samples.

Results

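In wild-type mouse embryonic fibroblasts (MEFs), 17784 CTCF peaks lay inside the bodies of protein-coding genes and overlapped a peak of the cohesin subunit Rad21. They were chosen by their calls in the wild-type lists: a CTCF peak on 1 of the 19 autosomes, an overlap of at least 1 bp with a Rad21 peak, a midpoint within a protein-coding gene of GENCODE M21 on the mouse build mm10, and more than 1 kb to the 5' end of any such gene. The 17784 sites made up 45.2% of the 39365 autosomal CTCF peaks that overlapped Rad21 and were part of 58231 autosomal CTCF peaks (60204 with the sex chromosomes). Of the other peaks with both proteins, 4329 lay within 1 kb of a gene 5' end (promoter sites) and 17252 outside genes (intergenic sites).

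CTCF is a zinc-finger protein that binds a long, directional DNA motif and acts as an insulator. Cohesin, a ring-shaped complex whose kleisin subunit is Rad21, extrudes loops of chromatin and is held where it meets CTCF, most readily at motifs that point towards it, so that sites with both proteins tend to anchor loops. Inside genes such anchors can join promoters with enhancers in introns, and CTCF within transcribed sequence is known to affect RNA polymerase II pausing and splicing.

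The study used clonal female MEF lines from mid-gestation F2 embryos of a cross of Mus musculus domesticus FVB with Mus musculus Castaneus, sub-cloned so that a line has a single choice of inactive X. The wild-type lists (wt) came from clone Wt2A1 and the mutant lists (mut) from clone Mut5A6, which lacks SmcHD1, an SMC-family protein needed for X inactivation, through the germline MommeD1 mutation. The knockout lists (somKO) merged clones A3-3 and D4, in which SmcHD1 was disrupted with CRISPR. According to the methods of the study, these clones were made from another wild-type clone than Wt2A1, and the autosomes of the lines are mosaics of both strains. Each list was called on the merged reads of all libraries of a group, 3 each (wt, mut) and 4 (somKO) for CTCF, and 2 each (wt, mut) and 4 (somKO) for Rad21. A group therefore has a single list and its shares carry no error between replicates, and genotype and clone cannot be told apart. List length ran from 57798 peaks (mut) to 69736 (somKO) for CTCF and from 66031 (mut) to 89974 (somKO) for Rad21, and the number of reads behind each list is unknown. A site is said below to have no peak in a list if no peak of that list touches it, and a peak just under the threshold of the peak caller counts as absent.

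A few sites are shown by sequence, because the spelling of the motif and its repeat context recur in the results. The conserved core of the CTCF motif was searched as CCANNAGNNGGC, with N for any base, on both strands of the 300 bases around each peak's midpoint. For 7 of the 8 genes with most sites, the highest scoring intronic site with the core and in no other protein-coding gene is shown, clear of annotated exons, as 80 bases of the GRCm38 (mm10) assembly from RefSeq, 5' to 3' on the strand that carries the core, with the core in capitals.
Gm20388, chr8:120179038-120179117, plus strand: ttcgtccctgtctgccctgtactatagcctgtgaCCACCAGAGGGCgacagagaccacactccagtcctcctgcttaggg
Fgfr2, chr7:130267270-130267349, minus strand: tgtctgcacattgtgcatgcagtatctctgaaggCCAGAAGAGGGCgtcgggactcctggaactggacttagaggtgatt
Pde4d, chr13:109776250-109776329, plus strand: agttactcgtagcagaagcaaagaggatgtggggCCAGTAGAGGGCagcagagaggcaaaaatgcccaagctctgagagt
Ank3, chr10:69846078-69846157, plus strand: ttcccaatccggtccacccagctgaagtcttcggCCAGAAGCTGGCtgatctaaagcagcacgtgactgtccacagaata
Atxn1, chr13:45577980-45578059, plus strand: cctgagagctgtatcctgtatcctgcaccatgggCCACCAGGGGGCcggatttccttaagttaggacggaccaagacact
Kalrn, chr16:33996290-33996369, plus strand: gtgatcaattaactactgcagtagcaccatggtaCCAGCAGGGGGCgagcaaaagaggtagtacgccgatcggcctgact
Rbms3, chr9:116907118-116907197, minus strand: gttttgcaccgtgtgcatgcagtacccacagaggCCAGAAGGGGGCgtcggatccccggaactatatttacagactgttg
The cores of the Atxn1 and Kalrn windows were on the strand opposite to the gene, and the other 5 were on the gene's strand. All 7 sites had peaks of both proteins in wt, mut and somKO. Introns and genes are those of GENCODE M21, and 2 of the windows rest on very long spans. The Fgfr2 site lay 2856 kb from the GENCODE 5' end of a gene that spans 104 kb in RefSeq. Gm20388, of 4435 kb, had no RefSeq gene of its name.

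The core was found at 5656 of the 17784 gene-body sites, a share of 31.8% (95% Wilson interval 31.1 to 32.5; this and all further intervals cover counting error only). It was found in 1.60% of all 300-base tiles of the autosomes and in 1.89% of the tiles within gene bodies. The share was 30.9% (30.3 to 31.6) at intergenic sites, 12% (11.1 to 13) at promoter sites and 43.9% (43.0 to 44.9) at gene-body CTCF peaks without Rad21. Over the whole peak rather than 300 bases, 48.5% of gene-body sites held a core. By this measure the share was 47.8% at intergenic sites, 19.8% at promoter sites and 47.0% at gene-body CTCF peaks without Rad21. The higher share of the last group thus held for the 300 bases only, and its peaks were narrower (median width 285 bp against 581 bp). A site without these letters can still hold a weaker form of the motif.

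A single spelling of the core accounted for 50.3% of the gene-body sites with a core. CCAGAAGAGGGC was nearest to the midpoint at 2844 sites, and the next, CCAGCAGAGGGC, at 271. Of the 2844 cores, 2835 (99.7%) lay in soft-masked sequence, which marks interspersed and other repeats in the assembly and covers 33.5% of the autosomal bases. Among all gene-body sites with a core, 3510 (62.1%, 60.8 to 63.3) had it in soft-masked sequence, against 52.3% (50.9 to 53.6) at intergenic and 37.7% (33.6 to 41.9) at promoter sites. Short interspersed elements of the B2 family are known to have spread CTCF motifs through rodent genomes. Repeat families were not analysed here. The spellings and the split by soft-masking were examined after other values had been seen.

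Sites with a repeat-borne core ranked lower and were absent from the mut lists more often. The rank of a site is the percentile of its CTCF wt score among all autosomal CTCF wt peaks, where 100 is the highest, and its median was 50.0 for cores in soft-masked sequence and 71.2 for the others. Of the 3510 sites with a soft-masked core, 14.9% (13.8 to 16.1) had no CTCF peak in mut and 30.3% (28.8 to 31.8) no Rad21 peak. Of the 2146 other sites with a core, 3.87% (3.13 to 4.77) and 11.4% (10.1 to 12.8) had none. Since the kinds also differed in rank, they were set side by side within 5 bins of rank, each 20 percentile points wide. In bin 2 the shares without CTCF in mut were 31.5% (28.5 to 34.8) and 19.2% (14.2 to 25.6), and in bin 3 they were 9.22% (7.76 to 10.9) and 4.60% (3.00 to 6.99). In bin 1 the intervals overlapped, at 49.6% (43.7 to 55.6) and 44.1% (32.2 to 56.7).

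**Figure D1:**
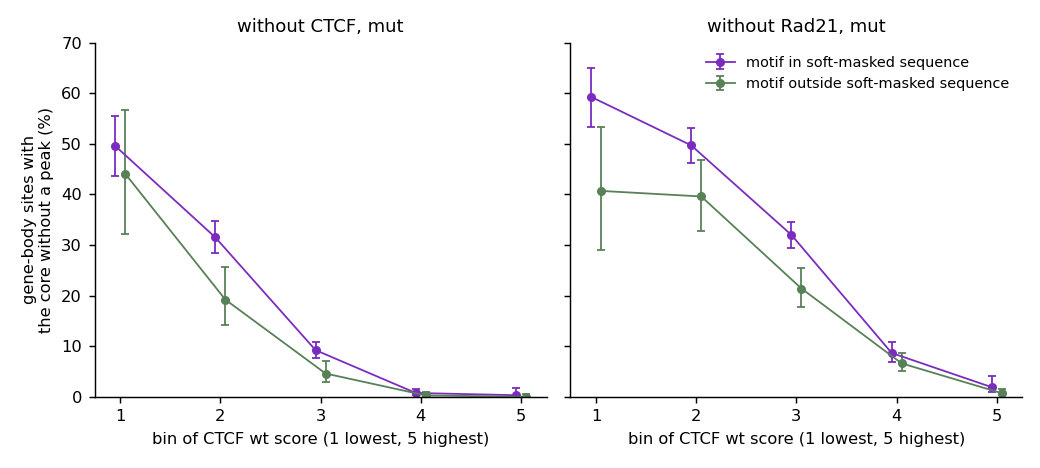
Share of gene-body sites with the CTCF core that had no CTCF peak (left) or no Rad21 peak (right) in mut, by bin of CTCF wt score, for cores inside and outside soft-masked sequence; bars are 95% intervals. In bin 3 the Rad21 shares were 32.0% and 21.4%, and in bins 4 and 5 the points of both kinds lie close together.

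Fate also differed between spellings, which were not compared within bins of rank or by soft-masking. The part of these in the shares was not tested. The shares of both proteins did not always go together. A spelling with 122 sites had 34.4% without Rad21 but 5.74% without CTCF in mut, at a median rank of 61.7. For one with 128 sites the values were 32.0%, 6.25% and 54.9. Of the spellings below, the one with 131 sites had a median rank of 79.0 and 1.53% of its cores in soft-masked sequence. At CCAGAAGAGGGC, 16.0% (14.7 to 17.4) of sites had no CTCF peak and 31.5% (29.8 to 33.2) no Rad21 peak in mut, with a median rank of 48.3. At CCACTAGATGGC, 0 of whose 113 cores lay in soft-masked sequence, the shares were 1.77% (0.487 to 6.22) and 6.19% (3.03 to 12.2), with a median rank of 74.4. At CCAGCAGGGGGC they were 2.29% (0.782 to 6.52) and 8.40% (4.75 to 14.4), over 131 sites.

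The direction of the core was split almost evenly with respect to the gene. Of 5402 sites with cores on a single strand and within a single gene, 2664 (49.3%, 48.0 to 50.6) had the core on the gene's strand. In introns the share was 49.9% (48.5 to 51.2), in coding sequence 46.0% (35.9 to 56.4) and in untranslated exons 34.1% (27.4 to 41.5) of 170. Pairs were formed from these sites in order along a gene, passing over sites without such a core. The cores pointed the same way in 53.0% (50.6 to 55.4) of 1627 pairs, towards each other in 22.9% and away from each other in 24.1%. Among 5252 pairs formed likewise from intergenic sites along a chromosome, which may have genes between them, the shares were 51.7%, 24.1% and 24.1%. In mut, 26.5% (24.9 to 28.2) of sites with the core on the gene's strand had no Rad21 peak, against 19.5% (18.1 to 21) of those with it on the other strand. For CTCF the shares were 11.7% (10.5 to 12.9) and 9.61% (8.56 to 10.8). The strands were not compared within bins of rank, by soft-masking or by spelling, and the part of these in the shares was not tested.

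Gene-body sites stood above the middle of all autosomal CTCF peaks in score, of which only a part overlap Rad21. Their median rank was 65, with quartiles of 44.2 and 82.4, and their Rad21 peaks had a median percentile of 71.5 among Rad21 wt peaks. Intergenic sites had a median rank of 67.0, promoter sites 55.6 and gene-body CTCF peaks without Rad21 23.7. Since the overlap with Rad21 is part of the choice of sites, their rank among all CTCF peaks and the last difference are descriptions. Among the autosomal CTCF peaks that overlap Rad21, the median percentile of gene-body sites was 49.6. The median CTCF peak was 581 bp wide at gene-body sites, against 443 bp over all autosomal CTCF peaks.

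The lowest score in the list, 13, was found at 10 sites. Of the 10 highest scoring sites, 8 were on chromosome 5, as were 47 of the highest 100, although the chromosome held 8.82% of all gene-body sites. The part of copy number in these counts was not tested. Arpc3, a subunit of the Arp2/3 actin-nucleating complex, held a site with a score of 55432, which stood at percentile 97.8 in mut. Med13l, a subunit of the Mediator kinase module, held 4 of the 10. Its 205 kb held 14 sites in all, 6 of them above percentile 99 in wt, and the lowest at 5.46. Of the 14, 4 had no CTCF in mut and 1 had none in somKO. The 4 sites among the 10 highest, which had CTCF in both, stood at percentiles of 93.6, 87.3, 80 and 80.1 in mut and at 99.9, 99.9, 100.0 and 99.6 in somKO. Each percentile is the place of the peak within its own list, and the lists differ in length and in libraries merged. The broadest Med13l peak was 7473 bp wide. Further sites among the 10 lay in Kcnip4, a potassium channel interacting protein, C130026I21Rik, Sec22c, of vesicle transport, and Apbb2. The median width of the highest 100 sites was 2114 bp, and 100 of 100 had a CTCF peak in mut. Of the 100, 10 held the core in the 300 bases around the midpoint, which cover only a part of such wide peaks. In bin 5 of rank, 20.4% of gene-body sites held the core in the 300 bases and 55.1% over the whole peak.

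Most gene-body sites lay in introns. Introns held 16080 sites (90.4%), untranslated exons 927 (5.21%) and coding sequence 777 (4.37%). Per Mb of gene body this came to 17.8 sites in introns, 28.1 in untranslated exons and 24.7 in coding sequence. Exonic sites ranked higher, with medians of 71.2 in untranslated exons and 70.3 in coding sequence against 64.3 in introns, and fewer of them had no Rad21 peak in mut, with 10.7% (8.85 to 12.8), 10.8% (8.82 to 13.2) and 17.1% (16.5 to 17.6). For CTCF in somKO the shares without a peak were 3.56% (2.55 to 4.96), 3.35% (2.29 to 4.86) and 2.61% (2.38 to 2.87), with intervals that overlap. These shares were not compared within bins of rank. They carried the core in 19.7% and 12.4% of cases, against 33.4% in introns.

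Gene bodies beyond 1 kb from 5' ends cover 39.4% of autosomal sequence and held 18.3 sites per Mb, against 11.9 per Mb between genes and 111 per Mb within 1 kb of 5' ends. Density fell with absolute distance, from 32.5 per Mb at 1 to 5 kb from a gene's own 5' end to 22.6 at 10 to 25 kb and 10.1 beyond 250 kb. Long distances exist in long genes only, and sites per 100 kb were fewest in genes over 500 kb. When each gene was cut into 10 equal parts, density fell from 20.7 per Mb in the part at the 5' end to 16.1 in the next and rose to 22.5 in the part at the 3' end, where the median rank was also highest, at 71.4 against 56.1 in the part at the 5' end. The cut at 1 kb runs through a continuous distribution. Within genes, 133 sites with both proteins lay at 0.9 to 1.0 kb from a 5' end, just outside the choice, and 128 at 1.0 to 1.1 kb, just inside, with median ranks of 57.8 and 40.5. The bins next to these had medians of 50.3 (0.8 to 0.9 kb) and 54.3 (1.1 to 1.2 kb), so that the median varied between neighbouring bins on both sides of the cut.

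Of 20807 autosomal protein-coding genes, 8404 (40.4%, 39.7 to 41.1) held at least 1 gene-body site. A single site was found in 4207 genes, 2 in 1980, at least 5 in 719 and at least 10 in 95. The share of genes with a site rose from 10.5% (9.78 to 11.2) of genes up to 10 kb to 54.3% (52.7 to 55.9) at 25 to 50 kb and 93.4% (90.9 to 95.3) at 250 to 500 kb. Sites per 100 kb numbered 2.48 in genes up to 10 kb, were highest at 2.98 in genes of 10 to 25 kb and fell from there to 0.851 in genes over 500 kb. Across all genes, Spearman's correlation of gene length with the number of sites was 0.607, a description over genes that share chromosomes and overlap.

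**Figure D2:**
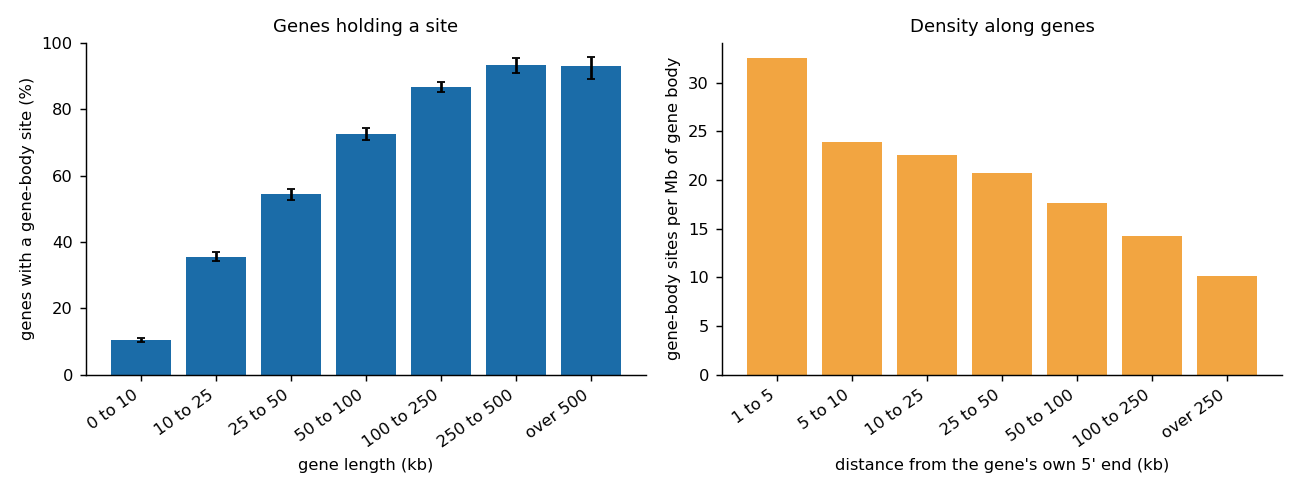
Left, share of protein-coding genes with at least 1 gene-body site by gene length, with 95% intervals; right, gene-body sites per Mb of gene body by distance from the gene's own 5' end. The share of genes with a site climbs from 10.5% to over 90% with length, and the density falls from 32.5 to 10.1 per Mb with distance.

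The highest counts came from annotated spans much longer than the RefSeq genes, or from loci that contain other genes. Gm20388 on chromosome 8 held 183 sites over 4435 kb, a GENCODE span that contains 71 other protein-coding genes, and 92 of its sites lay in no other gene. It takes in the 21 sites of Gse1, a chromatin-associated protein. Fgfr2, a fibroblast growth factor receptor, held 69 sites over 2961 kb in GENCODE M21 but 3 within its RefSeq span of 104 kb, and 28 of the 69 lay in no other gene. Gm37240 on chromosome 3 held 15 sites, 3 of them in no other gene. Bri3, which encodes a small transmembrane protein, held 15 sites over 202 kb and 4 within its RefSeq span of 20.1 kb.

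Other leading genes were long genes, several of them of signalling and cell adhesion. Their counts rest on the overlap of 1 bp between CTCF and Rad21. With 50% of both peaks overlapping in wt, Pde4d held 12 sites, Ank3 8, Bri3 9, Fgfr2 36 and Gm20388 99. Pde4d, a cyclic AMP phosphodiesterase, held 27 sites over 1504 kb, of which 24 had CTCF in mut, 22 had Rad21 in mut, 25 had CTCF in somKO and 27 had Rad21 in somKO. Ank3, the ankyrin that anchors membrane proteins to the spectrin skeleton, held 21 sites, and all 21 had CTCF in mut and somKO; 17 of them lay in its shorter RefSeq span. Nav2, a neuron navigator protein, held 18 sites (16 in its RefSeq span) with a median rank of 80.9, and 18 of 18 had CTCF in mut. Kalrn, a guanine nucleotide exchange factor, held 17 sites, of which 17 had CTCF and 13 had Rad21 in mut. Ctnna2, a catenin of neural cell contacts, held 16 sites with CTCF and Rad21 in mut at 16 of 16.

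Several had sites without calls in mut. Atxn1, which encodes ataxin-1, held 18 sites, of which 15 had CTCF and 12 had Rad21 in mut, and 18 had both in somKO. Rbms3, an RNA-binding protein, held 17 sites with a median rank of 44.6, of which 13 had CTCF and 10 had Rad21 in mut. Cntnap2, a neurexin-family adhesion protein, held 15 sites over 2245 kb, of which 12 had CTCF and 8 had Rad21 in mut. Itpr2, an inositol trisphosphate receptor, held 15, of which 13 had CTCF and 9 had Rad21 in mut. All 4 of these genes had CTCF at every site in somKO. Camta1 (13 in its RefSeq span), Dlg2 and Rora held 16 sites each, with CTCF in mut at 15, 15 and 14, and Agap1, Ank2, Auts2 and Etl4 held 15 each, with CTCF in mut at 15, 13, 14 and 15.

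**Figure D3:**
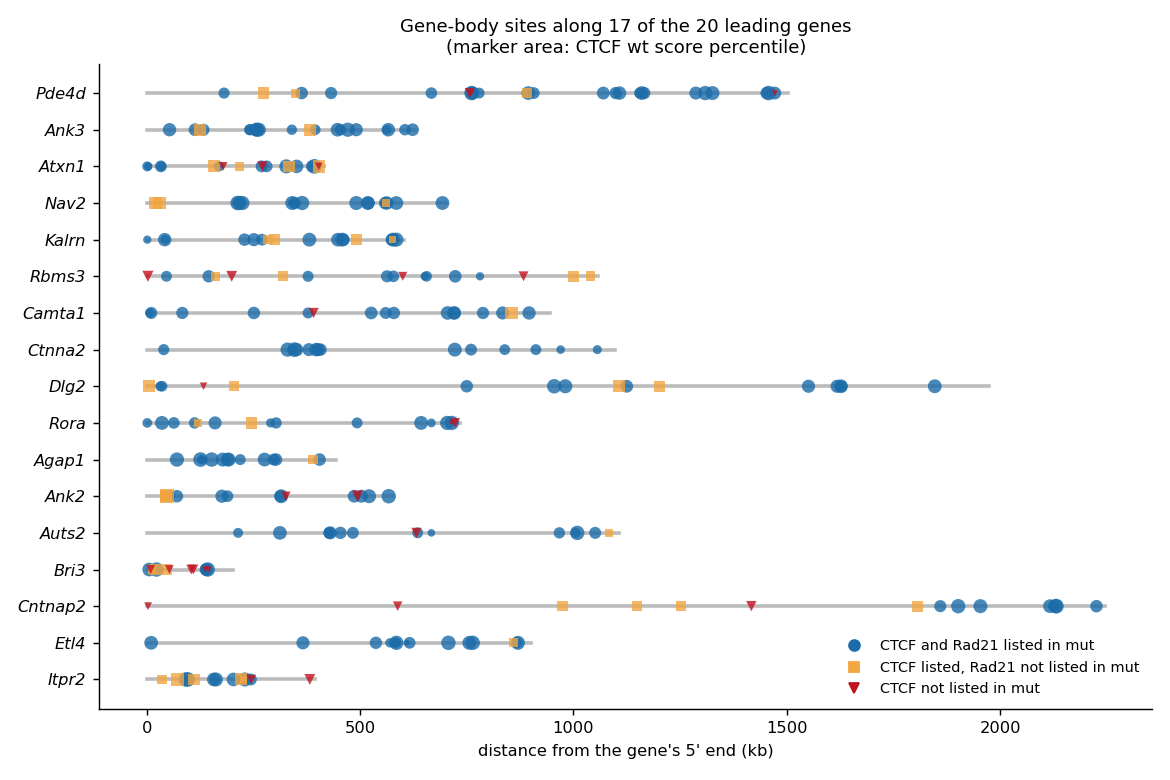
Gene-body sites of 17 of the 20 leading genes by distance from the gene's 5' end in kb, with marker area for the CTCF wt rank and marker shape and colour for the fate in mut; Gm20388, Fgfr2 and Gm37240 are left out for their composite spans. Ctnna2 shows 16 sites with both proteins, whereas Cntnap2 shows 3 without CTCF and further sites without Rad21 in mut.

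Per length, short genes led. Hdac11, a histone deacetylase, held 7 sites in 18 kb, or 38.8 per 100 kb, against 1.80 per 100 kb over all protein-coding genes. Mgat4b, an N-glycan branching enzyme, held 6 in 24.2 kb (3 within its RefSeq span of 9.77 kb), Pkm, the glycolytic pyruvate kinase, 5 in 23.0 kb, Rara, a retinoic acid receptor, 10 in 47.1 kb and Coq8b, of coenzyme Q synthesis, 5 in 24.9 kb. Pkm had CTCF and Rad21 at 5 of 5 sites in mut and somKO. Hdac11 had CTCF at 5 of 7 in mut and at 5 of 7 in somKO, with Rad21 at 7 of 7 in both, and a median rank of 22.6. Genes under 5 sites were not ranked by density.

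Most gene-body sites remained in the lists of both SmcHD1 genotypes. In mut, 16073 of 17784 sites (90.4%, 89.9 to 90.8) had a CTCF peak and 83.6% (83.0 to 84.1) a Rad21 peak. In somKO, 97.3% (97.1 to 97.5) had CTCF and 98.0% (97.8 to 98.2) had Rad21. All 4 calls were present at 14082 sites (79.2%). Over all autosomal peaks of wt, 19.6% of CTCF peaks had no counterpart in mut and 7.72% none in somKO, and 28.3% of Rad21 peaks had none in mut and 7.27% none in somKO. The gene-body sites without CTCF in mut (1711, 9.62%, 9.20 to 10.1), without CTCF in somKO (479, 2.69%), without Rad21 in mut (2925, 16.4%, 15.9 to 17) and without Rad21 in somKO (360, 2.02%) were thus below the background of all peaks, from which they differ in rank by the way they were chosen.

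The shares with Rad21 in mut and somKO, and the gap between them, depended on the overlap asked for. In a stricter setting, the Rad21 peak had to cover 50% of the CTCF peak and the CTCF peak 50% of it. Then 42.5% of sites had Rad21 in mut and 42.7% in somKO. The Rad21 list of wt met this demand at only 9579 of the 17784 sites, although all of them overlapped Rad21 by 1 bp. A Rad21 peak can thus be present and fail the demand, which cannot show whether the gap in presence closed. For CTCF the shares under the same demand were 79.0% and 87.5%. The longer somKO lists merged 4 libraries rather than 3 or 2. With every list cut to the same length by score, CTCF was found at 91.2% of sites in mut and 95.9% in somKO. With the full lists these shares were 90.4% and 97.3%. Rad21 was found at 84.0% and 97.2%, against 83.6% and 98.0% with the full lists. Both gaps narrowed, that of CTCF more, and neither closed. The cut does not make depth or the number of merged libraries equal, and their part in the gaps was not tested.

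Where calls were absent, CTCF and Rad21 did not always go together. In mut, 1827 sites (10.3%) kept CTCF without Rad21, 613 (3.45%) kept Rad21 without CTCF and 1098 (6.17%) had neither. In somKO the corresponding counts were 290, 409 and 70. Of the 1711 sites without CTCF in mut, 336 also had none in somKO and 1375 had a peak there, while 143 sites had CTCF in mut and none in somKO. Both comparisons share the wt list.

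Absent calls were concentrated at sites with low scores. The median rank was 25.1 for sites without CTCF in mut and 68.3 for those with it, and 10.2 and 66.0 in somKO. From bin 1 to bin 5 the share without CTCF in mut was 49.4%, 29.0%, 7.66%, 0.810% and 0.0396%, the last being 2 of 5045 sites. In somKO it was 26.1%, 4.62% and 0.203% in bins 1 to 3 and 0 of 10108 sites in bins 4 and 5, which allows a share of up to 0.0297%. For Rad21 in mut the shares were 39.2%, 40.7%, 26.3%, 6.70% and 1.01%, so that bin 2 was as high as bin 1. Among sites with CTCF in both lists, rank in wt and in mut had a Spearman's correlation of 0.859 over 16073 sites, and 0.895 over 17305 sites for somKO, with no independence between sites of the same library.

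Within the lower bins of rank, gene-body sites stood between promoter and intergenic sites in mut. In bin 1 the share without CTCF in mut was 49.4% (46.7 to 52.0) at gene-body sites, 17.6% (15.3 to 20.2) at promoter sites and 57.7% (54.9 to 60.4) at intergenic sites. In bin 2 it was 29.0% (27.2 to 30.9), 7.74% (5.96 to 9.98) and 37.9% (35.8 to 40.0). For Rad21 in mut the shares in bin 2 were 40.7% (38.7 to 42.7), 5.99% (4.44 to 8.02) and 49.0% (46.9 to 51.2). In bins 4 and 5 the gene-body and intergenic intervals overlapped for CTCF and Rad21 in mut. Taken over each chromosome as a whole, the share without Rad21 in mut was higher at gene-body than at promoter sites on 19 of 19 autosomes, by a mean of 13.1 percentage points (SD 2.91 over chromosomes), and the share without CTCF by 4.47 (SD 1.89), also on 19 of 19. Against intergenic sites the CTCF share was lower by a mean of 1.60 points (SD 1.60) and was higher on 2 of 19. In somKO the share without CTCF, not matched by rank, was higher at gene-body than at promoter sites on 3 of 19. Bin 1 held 7.83% of gene-body and 20.9% of promoter sites. Within it the share without CTCF in somKO was 26.1% (23.8 to 28.4) at gene-body and 16.7% (14.4 to 19.3) at promoter sites. In bin 2 it was 4.62% (3.84 to 5.54) and 1.61% (0.899 to 2.85). In bin 3 the order was reversed, at 0.203% (0.103 to 0.400) and 0.960% (0.466 to 1.97).

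**Figure D4:**
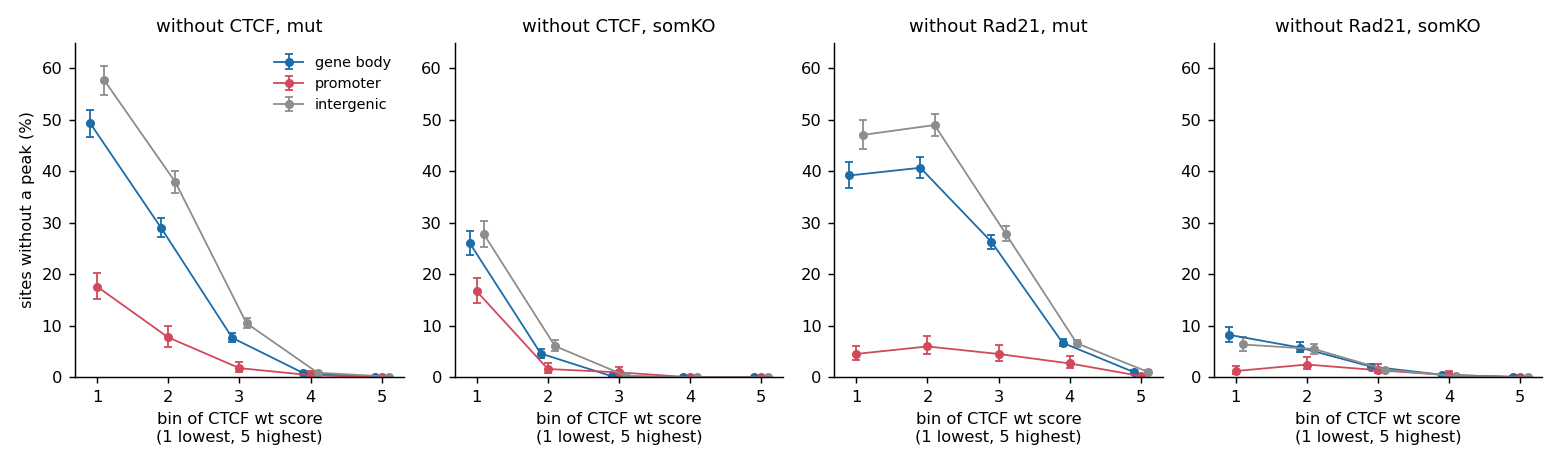
Share of sites without a CTCF or Rad21 peak in mut and somKO by bin of CTCF wt score, for gene-body, promoter and intergenic sites, with 95% intervals. In the mut panels the gene-body points run just under the intergenic points in bins 1 to 3 and well above the promoter points, and in bin 5 the gene-body share without CTCF in mut is 0.0396%.

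High-ranking sites without CTCF in mut were few. The highest was an intronic site of D2hgdh, a mitochondrial dehydrogenase of D-2-hydroxyglutarate, at chr1:93845652-93846394, with a rank of 99.1 in wt. It had CTCF at percentile 99.1 in somKO, and Rad21 in mut, where CTCF alone had no peak. Next came a site of Cacna1s, a calcium channel of skeletal muscle, at rank 80.7, and a pair of sites of Usp32, a deubiquitinase, at 72.3 and 71.4. These 3 had neither protein in mut and both in somKO. The 5 highest ranking intronic sites with a core, in a single gene and without CTCF in mut are shown in the same way as above, because they carry the strongest calls that were absent.
D2hgdh, chr1:93846114-93846193, plus strand: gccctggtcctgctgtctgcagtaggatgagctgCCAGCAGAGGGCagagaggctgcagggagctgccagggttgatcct
Usp32, chr11:84993162-84993241, minus strand: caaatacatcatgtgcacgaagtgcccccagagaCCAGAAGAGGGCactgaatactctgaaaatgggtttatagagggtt
Dnah17, chr11:118029199-118029278, minus strand: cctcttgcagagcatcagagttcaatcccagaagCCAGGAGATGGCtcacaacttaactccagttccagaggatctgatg
Dgkh, chr14:78590536-78590615, plus strand: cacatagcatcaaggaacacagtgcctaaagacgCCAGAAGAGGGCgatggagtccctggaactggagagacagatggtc
Bptf, chr11:107057448-107057527, plus strand: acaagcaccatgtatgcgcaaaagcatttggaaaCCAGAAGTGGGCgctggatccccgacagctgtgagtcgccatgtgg
The Usp32 and Dgkh windows hold the commonest spelling, CCAGAAGAGGGC, and D2hgdh the next commonest, CCAGCAGAGGGC. All 5 sites had CTCF and Rad21 in somKO. The 3 highest ranking sites of this kind without CTCF in somKO had wt ranks of 45.2, 44.9 and 37.9.
Dach1, chr14:97830028-97830107, minus strand: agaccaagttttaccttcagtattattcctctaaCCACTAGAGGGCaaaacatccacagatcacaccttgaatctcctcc
Samd8, chr14:21788650-21788729, plus strand: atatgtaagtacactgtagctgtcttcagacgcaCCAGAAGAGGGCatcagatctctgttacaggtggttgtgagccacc
Auts2, chr5:132329677-132329756, plus strand: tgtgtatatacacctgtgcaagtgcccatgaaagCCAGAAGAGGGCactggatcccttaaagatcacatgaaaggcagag
The site of Dach1, a transcriptional regulator, had neither protein in mut or somKO, whereas the sites of Samd8, a sphingomyelin synthase-related enzyme, and Auts2 had both in mut.

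The absent calls were not spread evenly over chromosomes. The share without CTCF in mut had a mean of 9.72% over 19 autosomes (SD 3.40), from 4.62% on chromosome 10 to 20.0% on chromosome 14, and without chromosome 14 the mean was 9.14% (SD 2.37), with 13.1% on chromosome 5 as the highest. In somKO chromosome 14 was also the highest, at 7.09% against a mean of 2.69% (SD 1.28). For Rad21 it was 25.7% in mut, against a mean of 16.4% (SD 4.21), and 5.55% in somKO, against 2.05% (SD 1.14). Chromosome 14 split at about 65 Mb. Distal of it, 99 of 220 sites (45%) had no CTCF in mut and 50.5% no Rad21, and 13.2% had no CTCF in somKO. Proximal of it, 31 of 429 (7.23%) had no CTCF in mut. The median rank of the 220 distal sites stood at 56.3 (wt), 18.9 (mut) and 51.5 (somKO), with absent sites at 0. The split was placed after the values were seen.

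**Figure D5:**
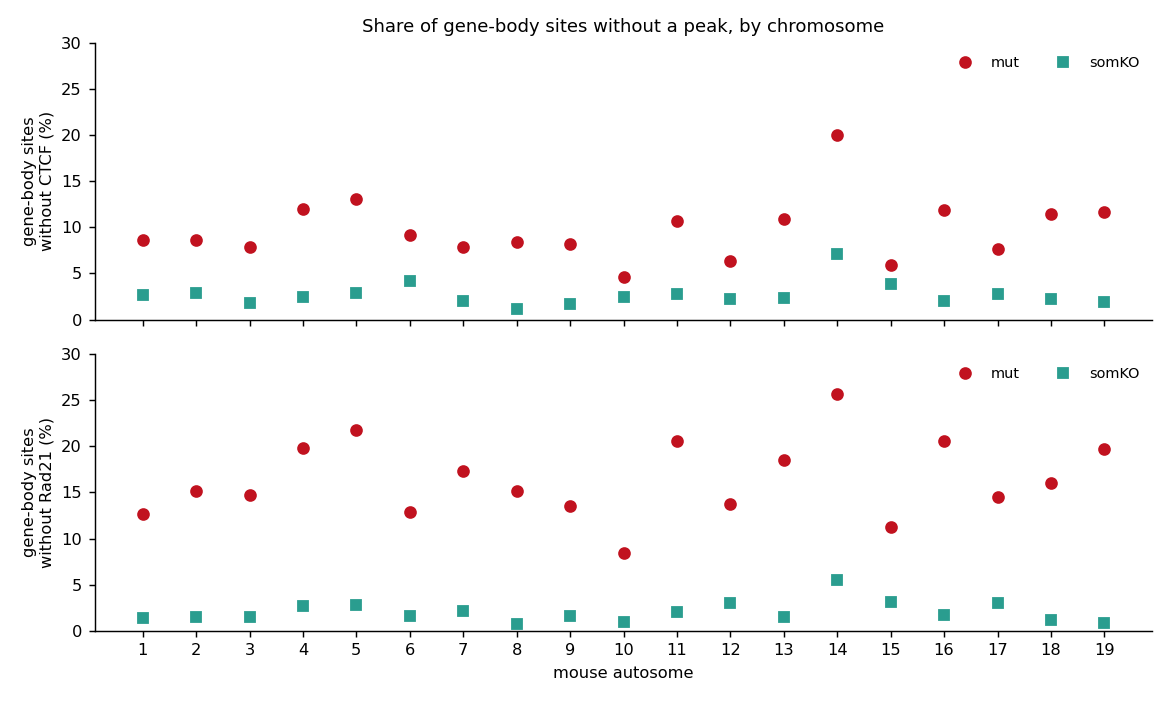
Share of gene-body sites without a CTCF peak (top) or a Rad21 peak (bottom) in mut and somKO on each autosome. Chromosome 14 has the highest point in all 4 series, at 20.0% and 7.09% for CTCF, and chromosome 10 the lowest in mut, at 4.62%.

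Of 351 windows of 5 Mb with at least 20 gene-body sites, 18 had over 20% of their sites without CTCF in mut, 5 of them on chromosome 14, and the median window had 8.47%. The highest was chr14:65000001-70000000, at 64.0%. On chromosome 4 between 45 and 70 Mb, 52 of 219 sites (23.7%) had no CTCF in mut and 4.11% none in somKO, and the median rank stood at 69.6 (wt), 46.9 (mut) and 76.9 (somKO). On chromosome 8 the median rank of gene-body sites stood at 66.2 (wt), 64.0 (mut) and 77.7 (somKO), against 65, 62.9 and 70.5 over all of them. The methods of the study name differences in chromosome number between the lines. The part of copy number in these values was not tested.

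Genes with many absent sites lay partly in such stretches. Among 214 genes with at least 8 sites, 71 had CTCF at every site in mut and 153 in somKO. Gabbr2, a GABA-B receptor subunit in the chromosome 4 stretch, held 13 sites, of which 4 had CTCF and 2 had Rad21 in mut, and 12 had each in somKO. In the 1 Mb on either side of it, 10 of 62 sites with both proteins had no CTCF in mut. Babam2, of the BRISC deubiquitinase complex, held 8 sites, of which 3 had CTCF in mut, with 25 of 101 flanking sites without it. Dgkh, a diacylglycerol kinase on distal chromosome 14, held 8 sites, of which 3 had CTCF in mut and 8 in somKO, with 15 of 31 flanking sites without it. 3110082I17Rik kept CTCF at 5 of 9 and Bri3 at 9 of 15. In somKO the lowest share with CTCF among genes with at least 8 sites was that of Bcar3, an adaptor of integrin signalling, with 7 of 9 (its RefSeq span holds 5 of the 9), followed by Kcnma1, the BK potassium channel, with 9 of 11 (9 of the 11 sites lie in its RefSeq span), Mast4 and Pdzd2 with 10 of 12 each, and Ptprd, a receptor tyrosine phosphatase, with 11 of 13.

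Genes of fibroblasts and their regulators were taken as lists, written with earlier results of these data known. Of 27 matrix genes, 20 held a total of 50 sites, 3.27 per 100 kb, of which 12 (24.0%, 14.3 to 37.4) had no CTCF in mut, 1 none in somKO and 7 (14%) no Rad21 in mut. Over all gene-body sites these shares were 9.62%, 2.69% and 16.4%. Col5a1, a fibrillar collagen, had CTCF and Rad21 at 5 of 5 sites in mut, and Fbn1, the microfibril protein fibrillin-1, at 3 of 3. Eln, which encodes elastin, had CTCF in mut at 2 of 5 and Rad21 at 4 of 5, and Loxl2, a collagen crosslinking enzyme on distal chromosome 14, had neither protein at any of 3. Col1a1 and Timp2 had CTCF in mut at 3 of 4 each, Col6a3 at 4 of 4, Col5a2 at 2 of 3 and Loxl1 at 3 of 3.

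Of 31 mesenchymal regulators and signalling genes, 26 held 95 sites, of which 22 (23.2%, 15.8 to 32.6) had no CTCF in mut, 6 none in somKO and 23 (24.2%) no Rad21 in mut, with a median rank of 48.1. Nfib, a nuclear factor I transcription factor, had CTCF in mut at 7 of 8 sites (3 of the 8 lie in its RefSeq span of 217 kb, against 416 kb in GENCODE), Smad6, an inhibitory Smad of BMP signalling, at 6 of 7 and Tead1, a Hippo pathway transcription factor, at 5 of 7. Ebf2, of the early B-cell factor family, had it at 0 of 4 and lies on distal chromosome 14, Ebf3 at 1 of 4 and Ebf1 at 4 of 4. Runx1 and Tgfbr3, a TGF-beta co-receptor, had it at 3 of 6 each, and Runx2, the regulator of bone formation, at 4 of 4. Nfic and Nfix held 6 sites each, with CTCF in mut at 6 and 5, although 2 of the 6 Nfic sites lie in its RefSeq span of 35.7 kb, Tcf4 at 5 of 5, Smad3 at 4 of 4, Nfia at 3 of 3 and Tbx15 at 1 of 3. Of 13 genes of CTCF, cohesin, its regulators and SmcHD1, 8 held 14 sites. Smchd1 itself, the gene disrupted in mut and somKO, held 1 of the 14, which had CTCF and Rad21 in both. Smc3, a cohesin ATPase, had CTCF in mut at 2 of 3 and Stag1, a cohesin subunit that contacts CTCF, at 3 of 3. The lists differ in rank and chromosome from all gene-body sites, and the part of these in their shares was not tested.

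Very long genes used in neurons held many sites at low density. Of 31, 30 held 267 sites at 0.614 per 100 kb, of which 21 (7.87%, 5.20 to 11.7) had no CTCF in mut, 8 (3.00%) none in somKO and 45 (16.9%, 12.8 to 21.8) no Rad21 in mut. Lsamp, Pcdh15 and Nrxn3, all of cell adhesion, held 15, 15 and 14 sites, and all had CTCF in mut and somKO. Ptprd had it at 8 of 13 in mut. Magi2, Wwox, Opcml and Csmd1 held 9, 8, 7 and 6 sites, all with CTCF and Rad21 in mut, whereas Lrp1b, a lipoprotein receptor family member, had CTCF at 4 of 5 and Rad21 at 2 of 5.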

How the data were processed

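ChIP-seq peaks were analysed in 8 lists of the 52 libraries described (3 genotypes for CTCF and Rad21, and wt and mut for SmcHD1). Libraries for H3K27me3 and for input are left out. According to the methods of the study and the submitters' processing notes, the authors aligned reads with Bowtie2 to mm10 with strain variants masked, merged the libraries of a group and called narrow peaks with MACS2 on both alleles together; versions and the use of inputs are not given in the sources used here. Chromatin for Rad21 and SmcHD1 was crosslinked with EGS and formaldehyde, and for CTCF with formaldehyde alone. The deposited score of a peak was read as a MACS2 score that rises with significance, and served for ranks and filters inside a list; percentiles of different lists are set side by side as values only. Without read counts, depth and its part in absent calls are unknown.

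Peaks, genes (GENCODE M21) and the GRCm38.p6 assembly from RefSeq were joined by coordinates, given from 1, in Python 3.11.15 with NumPy 2.4.6, pandas 2.3.3 and SciPy 1.17.1. Peaks overlapped from 1 bp, and a site counted for every gene that held its midpoint. Rad21 in mut and somKO was measured at the CTCF wt peak. Shares carry Wilson 95% intervals, which cover counting error only, and a count of 0 allows up to 3 counts. No p-value was computed, since a group has 1 list and peaks are not replicates. The overlap step was tested on simulated lists. The sites, gene lists and rules were chosen with earlier results of these data known. Named were the 20 genes with most sites (ties by symbol), the 5 with most per 100 kb, the 5 with most absent CTCF among genes with at least 8 sites in mut and in somKO, the 10 highest scoring sites, and genes of 4 lists with at least 3 sites. The strongest absent sites other than those with printed sequence, and the stretches of chromosomes, were chosen after their values were seen. A few sites and sequences covered by these rules are not reported here.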

Additional observations from a re-analysis of the deposited data

How the results depend on the processing

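No paired analysis was possible because each group has 1 merged list, and no replicate could be left out for the same reason. With an overlap of 50% of both peaks between CTCF and Rad21 in wt, 9579 gene-body sites were left, with a median rank of 62.7. With the same demand on the mut or somKO peak, CTCF was present at 79.0% and 87.5% of sites and Rad21 at 42.5% and 42.7%. With scores of at least 50 in every list, CTCF was present at 92.2% in mut and 98.5% in somKO and Rad21 at 98.5% in somKO. With lists of equal length, CTCF was present at 91.2% and 95.9%, and Rad21 at 97.2% in somKO. The median rank among CTCF peaks with Rad21 was 49.6. With Rad21 measured at the Rad21 wt peak, an alternative chosen after seeing the data, it was present at 84.4% in mut. Of 59 values under alternatives, 32 stayed within the interval of the reported value, or for counts within 1.5 times of it, and 27 moved. The shares with transcript 5' ends and those without chromosome 14, the latter chosen after seeing the data like the RefSeq spans, were among the 32. Under the 50% overlap, 11 rather than 95 genes held at least 10 sites. The unknown depth and the single list per group limit every share.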

Other observations

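SmcHD1 peaks of wt overlapped few gene-body sites. A total of 213 of 17784 (1.2%) touched such a peak, and 6 of these 213 also touched a peak of the mut list, which lacks the protein. An SmcHD1 peak of wt was touched by 6.65% of promoter sites and by 339 of 17252 intergenic sites. Over all autosomal CTCF wt peaks it was 1129 of 58231 (1.94%), so that a low share was not particular to gene-body sites. By chromosome the share was 4.59% on chromosome 5, with 72 of the 213 sites, 2.01% on chromosome 11 and 0.158% on chromosome 12. Chromosome 5 also held 47 of the 100 gene-body sites with the highest CTCF wt scores. The part of copy number in these values was not tested. Mtus2 on chromosome 5 held an SmcHD1 peak at 6 of its 7 sites, Asic2 on chromosome 11 at 5 of 9, Ksr2 on chromosome 5 at 4 of 6 and Sez6l on chromosome 5 at 4 of 4. Of the 213 sites, 15 (7.04%, 95% Wilson interval 4.31 to 11.3) had no CTCF in mut, against 9.65% (9.22 to 10.1) of the rest, and their median rank was 74.3 against 65.

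Absent calls in mut had absent neighbours more often. Along a chromosome, 16.0% of the sites that followed a site without CTCF in mut had none either, against 8.94% of those that followed a site with CTCF. Without chromosome 14 the shares were 13.5% and 8.79%. In somKO they were 1.67% and 2.72%. The median distance between neighbouring gene-body sites was 35.4 kb.

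In 298 of the 8404 genes with a gene-body site, no site had CTCF in mut, and in 74 genes none had it in somKO. Of the 8404 genes, 4207 held a single site. Over all gene-body sites, 9.62% had no CTCF in mut and 2.69% none in somKO. Among genes with at least 3 sites, 6 had no site with CTCF in mut and 0 had none in somKO.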
